A study of Rattus norvegicus with 42 samples.

Results

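The cytochrome P450 genes of the rat were followed through liver, brain and lung and through mixtures of their RNA. Members were all probe sets with exactly 1 platform gene symbol that begins with Cyp and a digit. This gave 66 probe sets for 58 genes, out of 31042 probe sets tested and 14217 genes with a named probe set. All 3 tissues came from 1 untreated rat, whose sex and strain the labels do not give. The labels state an age of 9 to 12 weeks. Labelled cRNA was hybridised to Affymetrix arrays as pure liver, pure brain or pure lung, or after combining the 3 cRNAs in 11 known proportions. Each of the 14 groups had 3 technical replicate arrays, 42 in all. Mixtures are written as percent liver, brain and lung, for example 60/35/5. The labels state as the aim a test of how well tissue composition can be recovered by computation.

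P450 enzymes are membrane-bound heme proteins that insert oxygen into their substrates. The liver carries many of them in the endoplasmic reticulum of hepatocytes, where families CYP1, CYP2 and CYP3 oxidise drugs and other foreign compounds and CYP4 enzymes oxidise fatty acids. Other members make or break down cholesterol, bile acids, steroid hormones and vitamins, and some of these work in mitochondria. Lung epithelium, above all its club cells, carries a smaller set that acts on inhaled compounds, and neurons carry the enzyme that removes brain cholesterol.

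Values are log2 levels after RMA, a method that corrects background, equalises array distributions and summarises the probes of each probe set. Array medians lay between 5.48 and 5.83, and replicate arrays differed with a median SD of 0.12 for liver, 0.09 for brain and 0.09 for lung. The bacterial dap control probe sets read 2.43 to 3.09 in the pure tissues, so levels near 3 are close to background and folds against them are approximate. All 10 hepatocyte markers were highest in liver, all 5 neuron, 3 oligodendrocyte and 3 astrocyte markers in brain, and all 4 alveolar type 2, 2 club cell and 3 endothelial markers in lung. The 3 measured heart muscle markers were also highest in lung, with a summed level (log2 of the sum) of 10.32 to 10.36 there, 5.60 to 6.02 in liver and 5.08 to 5.47 in brain. The replicate arrays share the RNA of 1 rat, so the p-values below cover variation among arrays and none among animals. In whole tissue, fewer cells of a type and less RNA per cell cannot be told apart. Probe sets of close paralogs, such as those of the Cyp2c, Cyp2d and Cyp3a subfamilies, may share signal, which was not tested.

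The promoters of 46 of the 58 genes were matched by gene identifier in the RefSeq promoter table of build GRCr8. Each window ran from 250 bases before to 50 bases after the start of the gene. Cyp7a1, Cyp11b1, Cyp4a1, Cyp2a2, Cyp19a1, Cyp1a1, Cyp2c6v1, Cyp4v3, Cyp17a1, Cyp4f4, Cyp7b1 and Cyp4f17 were not matched. Shown first are close relatives of which some were far higher in liver than in the other tissues and some were not. Cyp3a23-3a1 had a mean level of 10.95 in liver, 3.07 in brain and 3.03 in lung. Cyp3a2, on its own probe set, had 3.43, 2.70 and 2.79. Their windows lie on the minus strand at chr12:14398754-14399053 and chr12:14343808-14344107, and capitals mark CAAAGTCCA, a motif of the kind bound by HNF4A.
Cyp3a23-3a1: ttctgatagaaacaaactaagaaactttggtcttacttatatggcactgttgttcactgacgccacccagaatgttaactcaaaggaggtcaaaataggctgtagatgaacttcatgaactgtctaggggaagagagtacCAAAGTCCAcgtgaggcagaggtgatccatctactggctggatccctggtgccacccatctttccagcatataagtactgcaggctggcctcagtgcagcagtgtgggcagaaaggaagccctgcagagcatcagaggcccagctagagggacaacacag
Cyp3a2: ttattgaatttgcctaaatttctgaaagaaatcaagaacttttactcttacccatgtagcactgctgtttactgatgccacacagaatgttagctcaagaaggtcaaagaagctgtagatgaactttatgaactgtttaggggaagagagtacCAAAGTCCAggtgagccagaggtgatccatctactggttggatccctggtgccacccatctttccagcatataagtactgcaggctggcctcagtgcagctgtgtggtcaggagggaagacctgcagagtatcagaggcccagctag

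The 2 Cyp3a windows were identical at 254 of 285 aligned bases (89.1%). CAAAGTCCA, searched on both strands, began 110 bases before the start of Cyp3a23-3a1 and 97 bases before that of Cyp3a2. Across all 33469 promoters of that length 0.391% held it, and among the 46 P450 promoters only these 2 did. The motif was thus present both in the gene with a high liver level and in its neighbour with a level near background.

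The second set holds 3 Cyp2c promoters. Cyp2c7 and Cyp2c12 were far higher in liver than in brain and lung on their probe sets, and Cyp2c11 was not. Cyp2c7 lies on the plus strand at chr1:247966144-247966443, Cyp2c12 on the minus strand at chr1:248676985-248677284 and Cyp2c11 on the plus strand at chr1:246174966-246175265. Capitals mark TATAAA, the core of a TATA box.
Cyp2c7: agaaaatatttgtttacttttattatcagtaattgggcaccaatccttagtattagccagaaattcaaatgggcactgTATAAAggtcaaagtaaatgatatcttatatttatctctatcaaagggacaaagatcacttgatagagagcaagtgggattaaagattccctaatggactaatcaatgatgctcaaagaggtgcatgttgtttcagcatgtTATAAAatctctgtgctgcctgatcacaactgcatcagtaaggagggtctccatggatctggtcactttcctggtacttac
Cyp2c12: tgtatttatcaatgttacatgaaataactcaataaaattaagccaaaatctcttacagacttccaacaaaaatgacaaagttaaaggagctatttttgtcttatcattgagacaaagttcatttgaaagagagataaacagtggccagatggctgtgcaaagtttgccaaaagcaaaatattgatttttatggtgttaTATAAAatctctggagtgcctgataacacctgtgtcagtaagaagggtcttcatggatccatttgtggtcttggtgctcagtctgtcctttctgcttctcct
Cyp2c11: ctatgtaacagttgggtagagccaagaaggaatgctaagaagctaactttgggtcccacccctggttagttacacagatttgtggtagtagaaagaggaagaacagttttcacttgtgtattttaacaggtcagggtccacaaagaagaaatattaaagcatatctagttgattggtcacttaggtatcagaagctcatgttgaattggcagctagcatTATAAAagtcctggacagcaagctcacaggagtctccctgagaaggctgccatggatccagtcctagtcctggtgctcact

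Cyp2c7 and Cyp2c12 were identical at 75.9% of aligned bases, Cyp2c7 and Cyp2c11 at 71.5%, and Cyp2c12 and Cyp2c11 at 70.9%. TATAAA (both strands) began 31 bases before the start in Cyp2c7 and Cyp2c11, with a second match 172 bases before the start in Cyp2c7, and 52 bases before it in Cyp2c12. It was found in 13 of the 46 P450 promoters (28.3%) and in 14.2% of all promoters. Of the 27 matched genes later counted as liver-enriched 9 held it (33.3%).

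The promoter of Cyp4b1, the P450 with a high level in lung, and that of Cyp46a1, with its highest level in brain, are shown for contrast. Cyp4b1 is on the minus strand at chr5:134393067-134393366 and Cyp46a1 on the plus strand at chr6:133011740-133012039. Neither holds CAAAGTCCA or TATAAA, so both are printed without capitals.
Cyp4b1: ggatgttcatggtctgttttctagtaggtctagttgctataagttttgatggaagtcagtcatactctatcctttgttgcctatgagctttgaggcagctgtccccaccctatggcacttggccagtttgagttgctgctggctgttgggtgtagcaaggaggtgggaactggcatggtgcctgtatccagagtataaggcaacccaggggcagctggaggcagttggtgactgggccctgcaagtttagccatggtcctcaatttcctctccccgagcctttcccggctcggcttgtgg
Cyp46a1: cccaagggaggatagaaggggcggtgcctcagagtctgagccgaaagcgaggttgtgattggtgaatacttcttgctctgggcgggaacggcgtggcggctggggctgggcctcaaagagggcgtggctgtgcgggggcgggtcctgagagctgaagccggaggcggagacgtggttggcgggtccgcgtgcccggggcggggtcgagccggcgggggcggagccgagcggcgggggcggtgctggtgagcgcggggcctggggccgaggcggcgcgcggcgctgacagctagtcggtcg

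The Cyp46a1 window held 36 CpG dinucleotides and that of Cyp4b1 held 3. The median was 3 over the 46 P450 promoters and 7 over all promoters. The Cyp2c7, Cyp2c12, Cyp2c11 and Cyp3a2 windows held 0.

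Liver was the main tissue of the family. By limma with Benjamini-Hochberg adjustment over all probe sets, 36 of 58 P450 genes were at least 2-fold higher in liver than in brain (all genes: 19.3%) and 5 were higher in brain (all genes: 20.0%). Against lung, 33 were higher in liver (all genes: 13.8%) and 6 were higher in lung (all genes: 20.6%). Between brain and lung 10 genes (17.2%) were higher in brain (all genes: 15.5%) and 13 (22.4%) were higher in lung (all genes: 20.8%). Both shares are near those of all genes. A gene was counted as enriched in a tissue when it was higher by this test than in both other tissues. On that count 33 P450 genes were enriched in liver (all genes: 9.61%), 3 in brain (all genes: 11.7%) and 5 in lung (all genes: 11.5%). The other 17 were enriched in none (all genes: 67.2%). The median difference of liver minus brain was 3.14 (log2) over the P450 genes and 0.19 over all genes, and that of liver minus lung was 2.16 and 0.03. Of the called P450 probe sets, 85.7% of those differing between liver and lung were higher in liver, and 73.3% with a rescaling of the arrays on their hybridisation controls (the control curve). That curve moved the median difference of all probe sets from 0.18 to -0.66 for liver minus brain and from 0.12 to -0.80 for liver minus lung.

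By probe set rather than by gene, 45 of the 66 differed between liver and brain (all probe sets: 33.5%), 42 between liver and lung (28.0%) and 24 between brain and lung (31.0%). Enriched were 36 in liver (7.28%), 3 in brain (11.5%) and 5 in lung (8.95%). Against the mixing lines described further on, 4 were above (0.325%) and 13 below (4.84%). From the mixtures alone 57, 61 and 44 were called between liver and brain (69.2%), liver and lung (69.9%) and brain and lung (66.8%), and 2 between the mixtures 60/35/5 and 65/34/1 (2.50%). The brain and lung count from mixtures, 44 of 66, is near its background, and so is the count of 2 between 60/35/5 and 65/34/1.

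**Figure D1:**
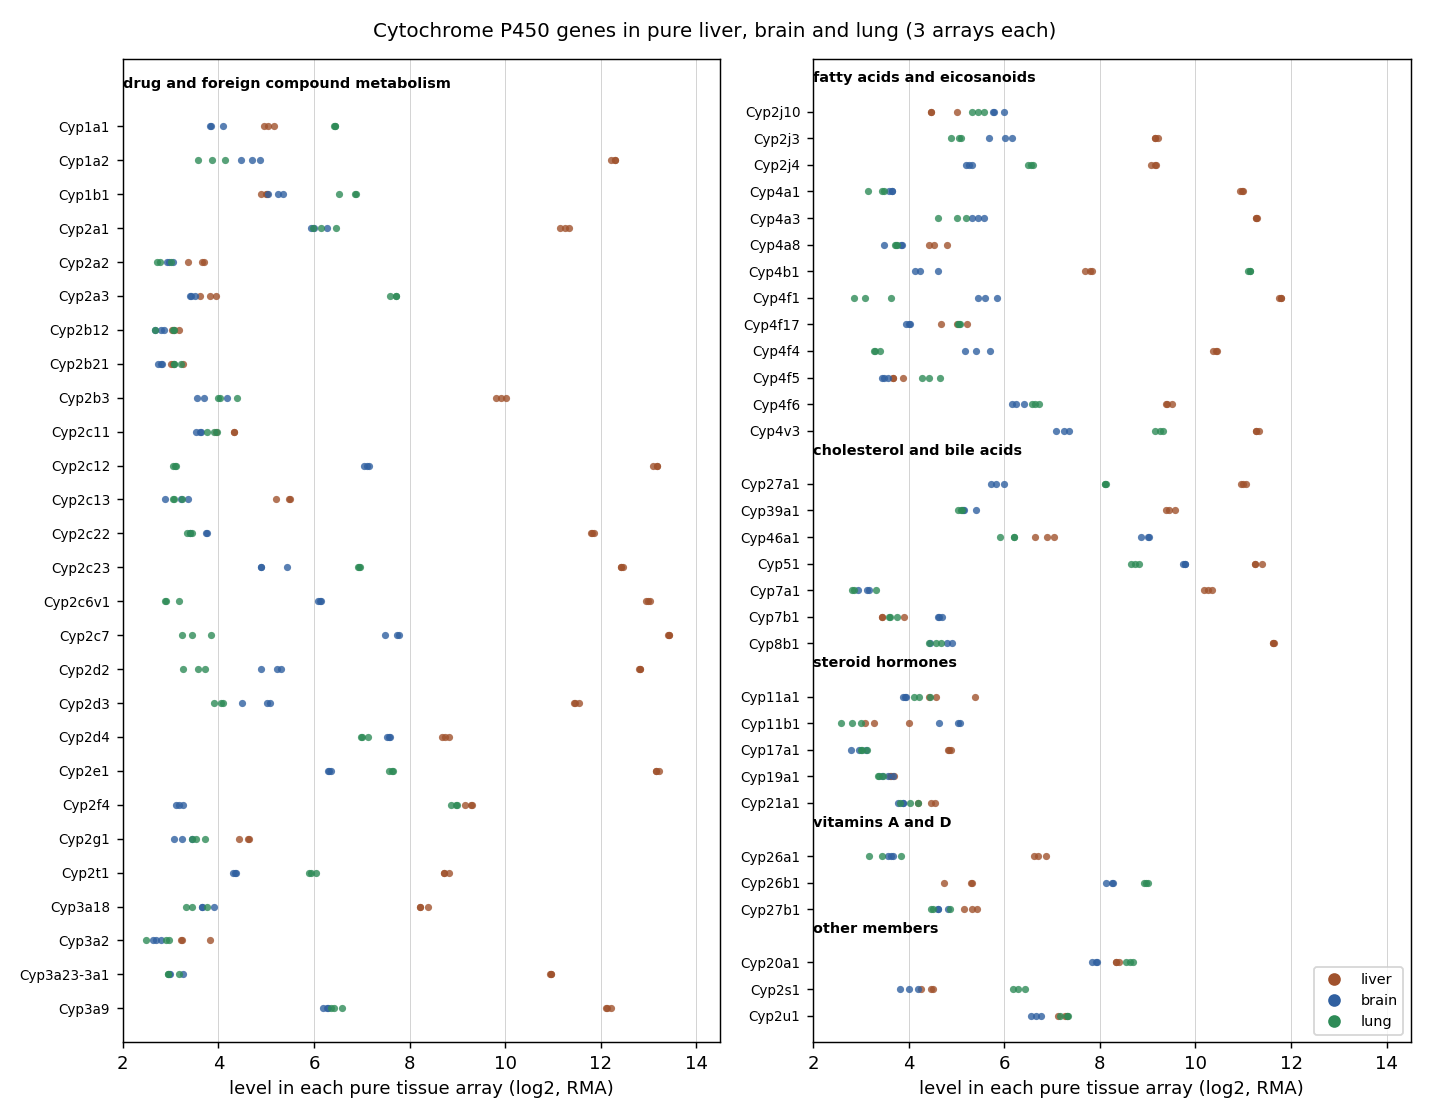
Level (log2, RMA) of each of the 58 P450 genes on the 3 arrays of pure liver, brain and lung, grouped by role, with 1 probe set per gene. Each row is to be read along itself, since levels of different probe sets are not comparable; in 33 rows the mean of the liver points is at least 1 unit above the means of both other tissues, in 5 that of the lung points is and in 3 that of the brain points.

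Among the 27 genes of drug and foreign compound metabolism, 18 were enriched in liver (all genes: 9.61%), 3 in lung (11.5%), 0 in brain (11.7%) and 6 in none (67.2%). Cyp1a2, which oxidises caffeine and aromatic amines, read 12.30, 12.22 and 12.30 in liver, 4.86, 4.69 and 4.46 in brain and 3.58, 4.14 and 3.86 in lung. No array of brain or lung came near the liver arrays, and liver was 194-fold above brain (limma adjusted p = 5.32e-39). Its paralog Cyp1a1, the aryl hydrocarbon hydroxylase, had the opposite order of liver and lung, at 5.03, 4.96 and 5.15 in liver and 6.43, 6.43 and 6.41 in lung. Brain was lowest for Cyp1a1, at 4.09, 3.84 and 3.82, and the groups did not overlap.

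The Cyp2c subfamily, hydroxylases of steroids and drugs, had 6 of 7 genes enriched in liver. Cyp2c22 read 11.80, 11.82 and 11.85 in liver, 3.76, 3.75 and 3.41 in brain and 3.35, 3.41 and 3.45 in lung, a 291-fold difference between liver and brain. Brain and lung lay close to background, so the fold is approximate. Cyp2c6v1 was 117-fold above the next tissue, Cyp2c12 66.0-fold and Cyp2c7 54.3-fold, and for all 3 that next tissue was brain. Cyp2c23, an arachidonic acid epoxygenase, had lung as its next tissue, at 6.94 against 12.43 in liver. Cyp2c13 was 4.74-fold above brain, from a liver level of 5.40.

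The Cyp2d genes, which oxidise many basic drugs, were all 3 enriched in liver. Cyp2d2 read 12.81, 12.82 and 12.81 in liver, 4.88, 5.22 and 5.32 in brain and 3.26, 3.71 and 3.57 in lung. Liver was 204-fold above brain, and brain was 3.09-fold above lung with no overlap of arrays. Cyp2d3 was 98.2-fold above the next tissue and Cyp2d4 2.28-fold. The smaller Cyp2d4 difference was 0.38 (log2), under the limit of 1, under the control curve.

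Of the 4 Cyp3a genes, steroid and drug hydroxylases, 3 were enriched in liver. Cyp3a23-3a1 read 10.95, 10.96 and 10.93 in liver, 2.97, 3.27 and 2.99 in brain and 3.18, 2.95 and 2.95 in lung. The brain and lung arrays overlapped at background and liver was 234-fold above brain. Cyp3a9 was 52.4-fold and Cyp3a18 23.1-fold above the next tissue. Cyp2e1, which oxidises ethanol and other small molecules, read 13.15, 13.15 and 13.21 in liver, 6.36, 6.32 and 6.29 in brain and 7.57, 7.65 and 7.63 in lung. It was 47.0-fold higher in liver than in lung, and lung was 2.45-fold above brain.

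The Cyp2a and Cyp2b subfamilies were mixed. Cyp2a1, a testosterone hydroxylase, stood at 11.24 ± 0.09 in liver and 6.19 ± 0.24 in lung (log2, SD, n = 3) and was enriched in liver, whereas Cyp2a3 was enriched in lung and Cyp2a2 in none. Cyp2b3 was 54.4-fold above the next tissue, and Cyp2b12 and Cyp2b21 stayed between 2.67 and 3.27 on all 9 pure arrays. Cyp2t1 was enriched in liver, 6.92-fold above lung. Cyp2g1, known from olfactory mucosa, passed at a difference of 1.00 (log2) between liver and lung. That call was lost in 4 of 42 fits that each left out 1 array (liver 2, liver 3, lung 1 and lung 3, values of 0.94 to 0.99), after a repeated quantile normalization (0.98) and after the control curve (0.07).

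Of the 13 genes acting on fatty acids and eicosanoids, 8 were enriched in liver (all genes: 9.61%), 1 in lung (11.5%) and 4 in none (67.2%). Cyp4a1, a hydroxylase of the fatty acid chain end that is a classical target of PPARA, read 11.01, 10.94 and 10.97 in liver, 3.66, 3.66 and 3.58 in brain and 3.15, 3.49 and 3.45 in lung. Liver was 162-fold above brain. Cyp4a3 was 56.8-fold above the next tissue, and Cyp4a8 was called in no pair. Cyp4f1, of the leukotriene hydroxylase subfamily, read 11.79, 11.79 and 11.76 in liver, 5.46, 5.61 and 5.84 in brain and 2.86, 3.62 and 3.09 in lung. It was 70.7-fold higher in liver than in brain and 5.44-fold higher in brain than in lung. In the Cyp4f subfamily 3 of 5 genes were enriched in liver, with Cyp4f4 31.8-fold and Cyp4f6 6.85-fold above the next tissue. In the Cyp2j subfamily of arachidonic acid epoxygenases 2 of 3 were, with Cyp2j3 9.38-fold and Cyp2j4 5.99-fold above the next tissue. Cyp4v3, a fatty acid hydroxylase, was 4.12-fold above lung.

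All 7 genes of cholesterol and bile acid metabolism were enriched, 5 in liver (all genes: 9.61%) and 2 in brain (all genes: 11.7%). The brain call of Cyp7b1 was at the limit, as given below. Cyp7a1, the rate-limiting enzyme of bile acid synthesis, read 10.19, 10.34 and 10.26 in liver, 3.13, 3.17 and 2.94 in brain and 2.85, 3.31 and 2.81 in lung. It was 145-fold higher in liver than in brain, where it lay at the level of the dap controls. Cyp8b1, which directs synthesis towards cholic acid, read 11.62, 11.64 and 11.63 in liver, 4.81, 4.91 and 4.46 in brain and 4.68, 4.58 and 4.43 in lung. Liver was 120-fold above brain. Cyp27a1, the mitochondrial sterol hydroxylase, was less tied to liver, at 10.96 to 11.05 in liver, 8.11 to 8.13 in lung and a mean of 5.84 in brain, so that lung was 4.82-fold above brain. Cyp39a1, an oxysterol hydroxylase, was 18.8-fold above the next tissue. Cyp51, the lanosterol demethylase of cholesterol synthesis, was high throughout and still 2.89-fold higher in liver than in brain.

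Cyp46a1, the neuronal enzyme that turns cholesterol into an oxysterol able to leave the brain, read 9.02, 9.00 and 8.87 in brain, 6.90, 7.03 and 6.65 in liver and 5.92, 6.21 and 6.20 in lung. The groups did not overlap, and brain was 4.29-fold above liver (limma adjusted p = 2.00e-22). The other cholesterol gene enriched in brain was the oxysterol hydroxylase Cyp7b1, at 4.62, 4.64 and 4.70 in brain, 3.91, 3.44 and 3.44 in liver and 3.59, 3.60 and 3.75 in lung. Its smaller difference, brain against lung, was 1.00 (log2), at the limit. The call was lost in 5 of 42 fits that each left out 1 array (liver 2, liver 3, brain 3, lung 1 and lung 2, values near 0.97 or 0.98) and after median centring (0.81), quantile normalization (0.99) and the control curve (0.93). The last brain-enriched member was Cyp11b1, which makes corticosterone in the adrenal cortex, at 4.63, 5.07 and 5.02 in brain, 3.08, 3.998 and 3.27 in liver and 2.81, 3.01 and 2.57 in lung. Brain was 2.74-fold above liver and every brain array was above every other array. All 9 values lie under the median of all values, 5.73, so this is a dim probe set. Of the adrenal markers, Star and Cyp21a1 were enriched in no tissue, and whether adrenal RNA had a part in the Cyp11b1 level was not tested.

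The lung-enriched members were Cyp4b1, Cyp2a3, Cyp2s1, Cyp1b1 and Cyp1a1. Cyp4b1, which activates lung toxicants such as ipomeanol, read 11.13, 11.14 and 11.11 in lung, 7.84, 7.80 and 7.69 in liver and 4.12, 4.24 and 4.60 in brain. It was 10.2-fold higher in lung than in liver, and liver was above brain by 3.46 (log2). Cyp2a3, a form known from lung and nasal epithelium, read 7.59, 7.71 and 7.72 in lung, 3.83, 3.62 and 3.95 in liver and 3.43, 3.51 and 3.41 in brain, a 14.7-fold difference between lung and liver. Cyp2s1, a form of barrier epithelia, was 3.71-fold above liver, its next tissue. Cyp1b1, which oxidises estrogens and aromatic hydrocarbons, was 2.90-fold above brain, and Cyp1a1 2.60-fold above liver. The airway club cell markers Scgb1a1 and Scgb3a1 had a summed level of 14.13 to 14.17 in lung, 5.68 to 6.48 in liver and 5.22 to 5.94 in brain, and their part in the lung levels was not tested.

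Of the 17 genes enriched in no tissue, 4 still differed between a pair. Cyp2f4, a form that oxidises naphthalene in club cells, read 9.15, 9.30 and 9.29 in liver, 8.98, 8.86 and 8.98 in lung and 3.10, 3.18 and 3.25 in brain. Liver and lung were thus close, 1.24-fold apart with no overlap of arrays, and lung was 54.4-fold above brain. Cyp26b1, which clears retinoic acid, went the other way round: it read 8.25, 8.14 and 8.28 in brain, 8.93, 8.96 and 9.00 in lung and 4.75, 5.31 and 5.32 in liver, so that lung was 14.3-fold above liver. A second, dimmer Cyp26b1 probe set was called in no pair, at 5.85 in lung, 5.26 in brain and 5.10 in liver, 1.68-fold between lung and liver. Its relative Cyp26a1, also a retinoic acid hydroxylase, was instead enriched in liver, 8.63-fold above brain. Cyp2j10 was 2.28-fold higher in brain than in liver, from levels of 5.84 and 4.66. Cyp4f17 was 2.09-fold higher in lung than in brain.

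The remaining 13 of 58 genes were called in no pair of tissues (all genes: 6203 of 14217). Cyp20a1, an orphan P450, and Cyp2u1, a fatty acid hydroxylase of brain and thymus, were present in all 3 tissues, at 7.83 to 8.70 and at 6.56 to 7.34. The steroid hormone genes Cyp11a1 (side-chain cleavage), Cyp19a1 (aromatase) and Cyp21a1 lay between 3.35 and 5.38 on every pure array, with 1 probe set per gene. The other Cyp19a1 probe sets went down to 2.64 and 2.92 in lung. Of the 5 steroid hormone genes, Cyp17a1 was enriched in liver, from 4.90, 4.84 and 4.83 there to 3.14, 3.02 and 3.01 in lung. That difference of 1.80 (log2) was 0.86 after the control curve. Cyp27b1, which activates vitamin D, Cyp4a8 and Cyp4f5 were also among the 13. So were Cyp2a2, Cyp2b12, Cyp2b21, Cyp2c11 and Cyp3a2.

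Several rat P450 genes are known to differ between the livers of males and females, and these genes were picked out after their values were seen. The list is not complete. Among male-predominant forms, Cyp2c11 read 3.95, 4.33 and 4.34 in liver, Cyp3a2 3.24, 3.82 and 3.22, Cyp2a2 3.37, 3.69 and 3.66, and Cyp2c13 5.48, 5.50 and 5.21. The probe set shared by Cyp2a2 and Cyp2a1 had a liver mean of 11.68, and Cyp3a18, of the same subfamily as Cyp3a2, one of 8.28. Cyp2c12, the female-predominant form, read 13.18, 13.09 and 13.18, and Cyp2c7 and Cyp2a1, which are also higher in females, had mean levels of 13.42 and 11.24. Each level stands on its own probe set, and with 1 animal and no sex in the labels no comparison of the sexes could be made.

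Some liver-enriched P450 genes differed between brain and lung. Of the 33, 7 were at least 2-fold higher in brain (all liver-enriched genes: 8.42%) and 6 were higher in lung (all liver-enriched genes: 21.9%), the latter a share near that background. Of the 8 with a liver level over 12, 4 were higher in brain, against 39.4% of all liver-enriched genes at that level. Cyp2c7 read 7.48, 7.73 and 7.77 in brain and 3.85, 3.25 and 3.44 in lung, a 17.7-fold difference (limma adjusted p = 1.02e-31). Cyp2c12 read 7.11, 7.04 and 7.15 in brain and 3.05, 3.09 and 3.11 in lung, and Cyp2c6v1 6.12, 6.15 and 6.09 in brain and 3.18, 2.89 and 2.89 in lung. All 3 lay near background in lung and clearly above it in brain, 16.2-fold and 8.75-fold higher for the latter 2. Cyp4f1, Cyp4f4, Cyp2d2 and Cyp51 were 5.44-fold, 4.28-fold, 3.09-fold and 2.05-fold higher in brain. Those higher in lung were Cyp27a1 (4.82-fold), Cyp4v3 (4.05-fold), Cyp2c23 (3.66-fold), Cyp2t1 (3.08-fold), Cyp2e1 (2.45-fold) and Cyp2j4 (2.44-fold).

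The hepatocyte marker list moved with the first of these groups. Of its 10 genes, 7 were at least 2-fold higher in brain than in lung and 0 in the other direction, and the list's summed level (log2 of the sum) was 16.47 to 16.50 in liver, 12.37 to 12.40 in brain and 7.97 to 8.13 in lung. The sum in brain was mostly albumin: Alb read 12.21 in brain and 5.07 in lung, 140.9-fold apart, while Apoc3 was 8.04-fold, Apoh 7.82-fold and Fgb 6.01-fold higher in brain. Serpina1, F9 and Mbl2 were not called between brain and lung, and Mbl2 read 3.22 in brain, near background. A few P450 genes with a strong liver signal were likewise near background in brain: Cyp3a23-3a1 at 3.07, Cyp7a1 at 3.08, Cyp4a1 at 3.63 and Cyp2c22 at 3.64. The other liver-enriched P450 genes with a liver level over 10 read higher in brain, from 4.67 (Cyp1a2) to 9.76 (Cyp51). The part of liver RNA in the brain levels was not tested.

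**Figure D2:**
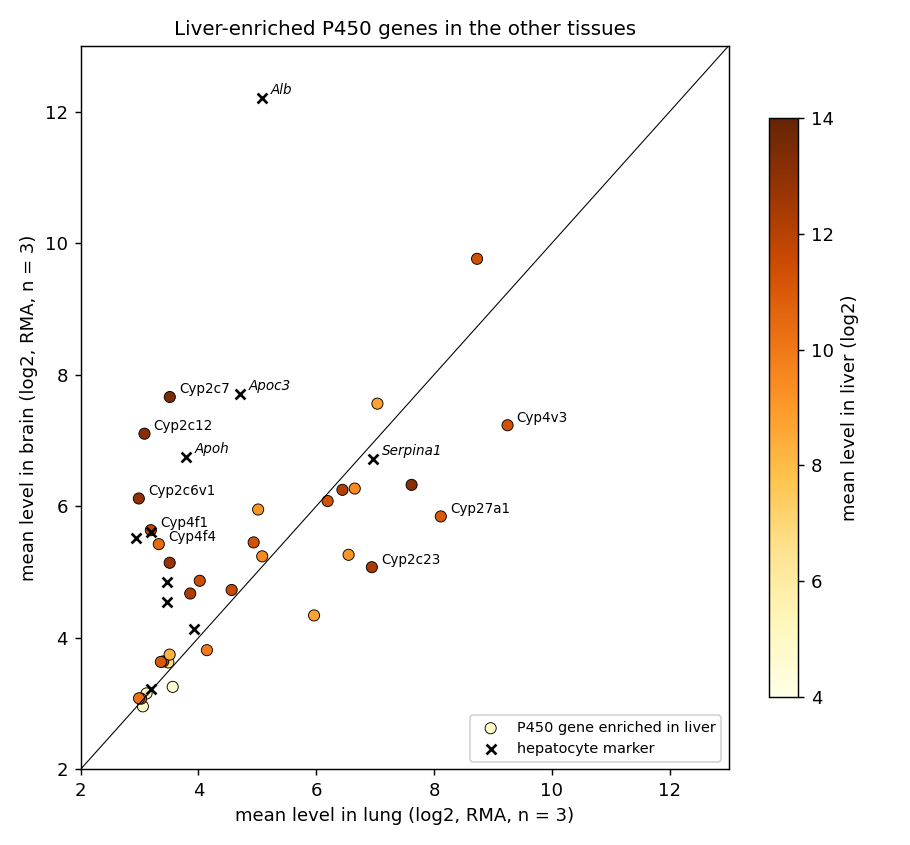
Mean level in brain against mean level in lung (both log2, RMA, n = 3 arrays) for the 33 liver-enriched P450 genes (circles, shaded by their mean liver level) and the 10 hepatocyte markers (crosses); the line marks equal levels. Cyp2c7 at 7.66 in brain and 3.51 in lung lies above the line with Cyp2c12, Cyp2c6v1, Alb and Apoc3, and Cyp27a1, Cyp4v3 and Cyp2c23 lie below it.

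Of the 7 genes with several probe sets, 6 had the same highest tissue on each, though calls between a pair could differ. The tissue differences of Cyp26b1 were called on only 1 of its 2. For Cyp4v3, Cyp51 and Cyp2j3 the same held for brain against lung. On their dimmer probe sets Cyp4v3 was 1.719-fold higher in lung and Cyp51 1.565-fold higher in brain, neither called. Cyp2j3 was 2.364-fold higher in brain on its dimmer probe set and not called on the brighter one (1.914-fold). The exception in highest tissue was Cyp2d4, a form also known from brain. Its brighter probe set read 8.75 in liver, 7.56 in brain and 7.04 in lung, and the other read 7.03, 6.99 and 7.05 in brain, 5.99, 5.80 and 5.93 in liver and 6.43, 6.28 and 6.34 in lung. On the latter brain was 2.17-fold above liver (limma adjusted p = 1.50e-14), with no overlap. The tissue of Cyp2d4 therefore depended on the probe set.

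P450 enzymes need electrons, heme and transcription factors, and the genes of these partners were read by the same test. Of 6 measured electron donors 3 were enriched in liver, Fdx1 (adrenodoxin, for the mitochondrial forms) 9.63-fold, Cyb5a 4.10-fold and Cyb5b 2.59-fold above the next tissue. Por, the reductase that serves all microsomal P450 enzymes and was named after its values were seen, read 8.34 in liver, 8.42 in lung and 7.49 in brain and was called in no pair. Of 8 measured genes of heme synthesis 4 were enriched in liver, Alad, Ppox, Alas1 and Fech, between 2.14-fold and 4.34-fold above the next tissue. Regulators of P450 genes were enriched in liver in 11 of 14 cases, among them the nuclear receptor gene Hnf4a (148.5-fold), Onecut1 (111-fold) and the bile acid receptor gene Nr1h4 (54.5-fold). Nr5a2 was 14.3-fold, the pregnane X receptor gene Nr1i2 12.8-fold, Cebpa 3.17-fold and the oxysterol receptor gene Nr1h3 3.13-fold above the next tissue. Dbp, a clock-controlled factor, was enriched in brain (4.96-fold). Over all genes, 9.61% were enriched in liver.

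Genes that neighbour each other did not always share a tissue. In the GRCr8 gene table, with no annotated gene between, the liver-enriched Cyp1a2 adjoined the lung-enriched Cyp1a1, and the liver-enriched Cyp4a1 adjoined the lung-enriched Cyp4b1. In the Cyp2a cluster the order was Cyp2g1 (liver, a call at the limit), Cyp2a3 (lung), Cyp2a1 (liver) and Cyp2a2 (none). Cyp3a2, near background in every tissue, adjoined Cyp3a23-3a1, which was enriched in liver. Other adjoining genes were both enriched in liver. These pairs were Cyp2c12 and Cyp2c13, Cyp2d3 and Cyp2d2, Cyp2j4 and Cyp2j3, Cyp4a3 and Cyp4a1, and Cyp4f1 and Cyp4f6.

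In the mixtures P450 levels followed the share of their tissue. A regression of the linear values of the 33 mixture arrays on the labelled shares gave the tissue differences without the pure arrays. All 33 liver-enriched, 3 brain-enriched and 5 lung-enriched P450 genes were again higher in that tissue than in both others by limma (adjusted p under 0.05, no fold limit), against 99.4%, 100% and 100% of all genes enriched in pure liver, brain and lung. Over the whole family, 38 of 58 genes were higher in liver than in both others (all genes: 19.3%), 4 in brain (all genes: 25.9%) and 10 in lung (all genes: 28.4%). For 19 of the 33 liver-enriched genes the fitted brain level was below 0, which no real level can be. In liver-enriched genes the fits are therefore read only for liver against the other tissues. No order of brain and lung is drawn from them for these genes. For Cyp4f1 and Cyp4f4, higher in brain among the pure tissues, the fitted brain levels were -203.6 and -119.5, below those fitted for lung. For Cyp2e1 the fitted brain level was 3441 and the fitted lung level 487.7 (linear), whereas pure lung was 2.45-fold above pure brain.

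Cyp46a1 rose with the share of brain, from 6.98, 7.12 and 6.88 at 5% brain (70/5/25) to 8.56, 8.75 and 8.54 at 70% brain (25/70/5). Cyp4b1 rose with the share of lung, from 6.83, 6.64 and 6.86 at 1% lung (65/34/1) to 10.52, 10.51 and 10.48 at 70% (5/25/70). Cyp3a9 rose with that of liver, from 8.56, 8.41 and 8.55 at 5% (5/25/70) to 11.87, 11.82 and 11.87 at 70% (70/5/25). In these 3 the ends of the range were far apart, and the mean over 11 mixtures lay within 0.18 (log2) of the sum of pure levels weighted by share. Single mixtures departed more for Cyp4b1, which lay 0.65 below the sum at 1% lung (65/34/1), where its arrays average 6.78 and the sum gave 7.43.

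**Figure D3:**
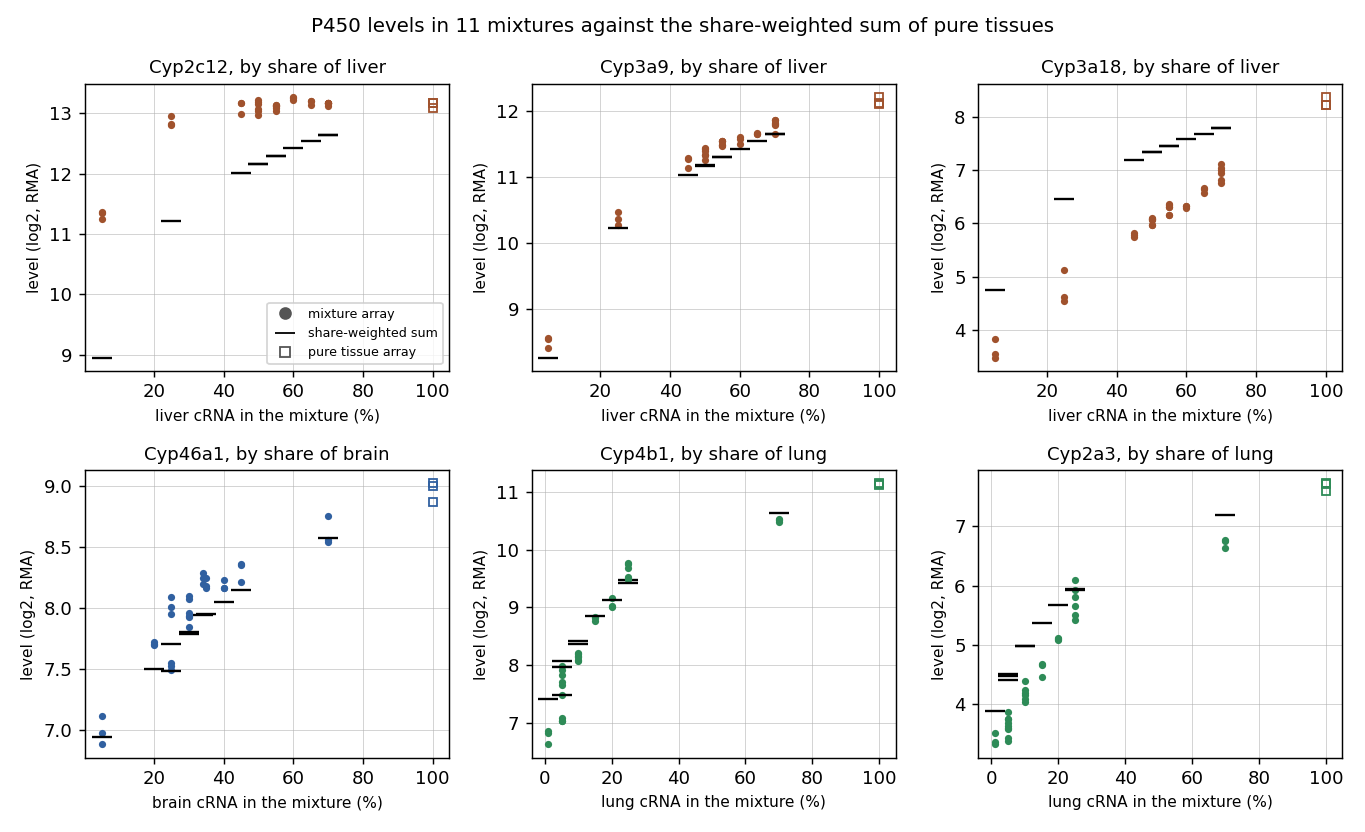
Level (log2, RMA) of 6 P450 genes on each mixture array (points) against the percent of the tissue named in each panel, with the share-weighted sum of pure means (bars) and the pure tissue arrays at 100% (squares). Cyp3a9 and Cyp46a1 lie within 0.31 of the sum in every mixture and Cyp4b1 does so from 10% lung on but lies up to 0.65 below it at lower shares, Cyp2c12 lies above it and level from 45% liver on, Cyp3a18 lies below it and Cyp2a3 lies mostly below it.

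Other P450 genes departed from that sum, counted where the mean departure over the 11 mixtures was at least 1.5-fold at an adjusted p under 0.05. By limma 4 genes lay above it (all genes: 0.492%) and 11 below it (all genes: 5.56%). The 4 above were Cyp2c7 (1.02 ± 0.06, log2, SE), Cyp2c12 (1.01 ± 0.04), Cyp2c6v1 (0.87 ± 0.04) and Cyp2e1 (0.73 ± 0.03), each above the sum in 11 of 11 mixtures. Cyp2e1 lost its call with median centring (0.47) and under the control curve (0.52). At 5% liver Cyp2c12 read 11.26, 11.36 and 11.35, where the sum gave 8.95, and at 25% it read 12.96, 12.80 and 12.83, where the sum gave 11.21. At 60% liver it read 13.25, 13.28 and 13.22, no lower than the 13.18, 13.09 and 13.18 of pure liver. Its level thus hardly changed over the upper part of the range.

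The largest departures below the sum were those of Cyp3a18 (-1.20 ± 0.08), Cyp26a1 (-1.11 ± 0.08), Cyp2c13 (-0.98 ± 0.07), Cyp17a1 (-0.92 ± 0.06) and Cyp39a1 (-0.88 ± 0.08), below it in 11 of 11 mixtures each. Cyp3a18 read 5.74, 5.82 and 5.78 at 45% liver, where the sum gave 7.20. Its pure liver arrays read 8.23, 8.38 and 8.22. With mixing taken on the log2 scale, which is not how cRNA was combined, Cyp3a18 and Cyp26a1 no longer passed (-0.0032 and -0.48) and Cyp39a1 turned to 0.18. After the control curve Cyp2c13, Cyp17a1 and Cyp39a1 stood at -0.58, -0.57 and -0.52, under the limit. The other 6 genes below the sum were Cyp2t1, Cyp1a1, Cyp2a3, Cyp2j3, Cyp2j4 and Cyp2b3, between -0.81 and -0.59. Under the control curve 5 of them lost the call, Cyp2t1 at -0.36, Cyp1a1 at -0.52, Cyp2b3 at -0.31, Cyp2j3 at -0.24 and Cyp2j4 at -0.22. A repeated quantile normalization took Cyp2a3 to -0.52, Cyp2b3 to -0.52, Cyp2j3 to -0.58 and Cyp2j4 to -0.56, also under the limit. Cyp2b3 lay at the limit and lost its call in 15 of 42 fits that each left out 1 array, with values of -0.58 to -0.54, and Cyp2j4 lost it without liver array 1 or 3.

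Departures went with the level in liver. Of the 8 liver-enriched P450 genes with a liver level over 12 (log2), 4 lay above the sum and 0 below. Of the 13 between 10 and 12, 0 departed in either direction. Of the 8 between 8 and 10, 6 lay below, and of the 4 under 8, 3 lay below. The same split over all liver-enriched genes gave 32 above and 0 below of 99 over 12, 0 and 7 of 357 between 10 and 12, 0 and 207 of 566 between 8 and 10, and 0 and 260 of 344 under 8. P450 genes thus departed in the direction of other liver genes of the same level, and over all probe sets departures had a median of -0.22.

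**Figure D4:**
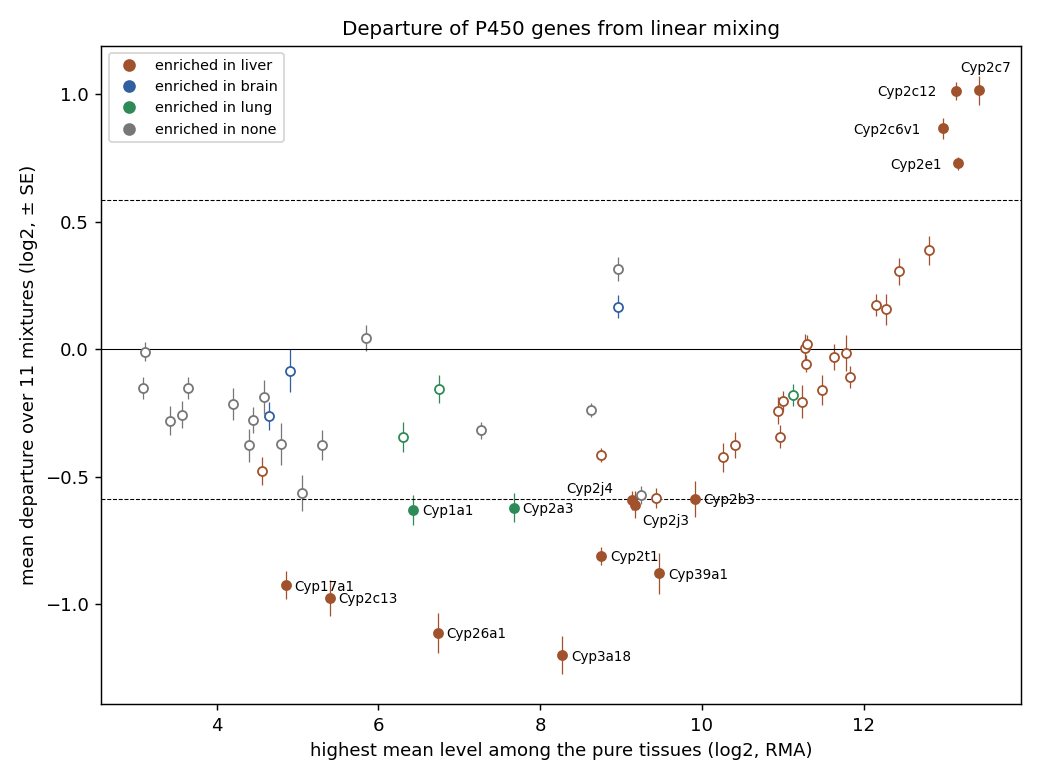
Mean departure from the share-weighted sum over 11 mixtures (log2, with SE) against the highest mean level among the pure tissues (log2, RMA) for the 58 P450 genes, coloured by the tissue of enrichment; filled points passed the test and the 1.5-fold limit (dashed lines). The 4 filled points above the upper line, Cyp2c7, Cyp2c12, Cyp2c6v1 and Cyp2e1, all lie at the right end of the axis.

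The mixtures 60/35/5 and 65/34/1 hold 5% against 1% lung, and also 60% against 65% liver and 35% against 34% brain. Their comparison asked how small a lung share the family could show. By limma (adjusted p under 0.05, no fold limit) 2 of 58 genes (3.45%) were called, both higher at 5% lung (all genes: 3.45% higher and 0.345% lower). The count is thus at its background and shows nothing particular to the family. Cyp4b1 read 7.66, 7.49 and 7.72 at 5% lung and 6.83, 6.64 and 6.86 at 1%, with no overlap and a difference of 0.84 ± 0.08 (log2, SE, adjusted p = 5.37e-10). Cyp2a3 read 3.75, 3.75 and 3.87 at 5% and 3.52, 3.33 and 3.36 at 1%, a difference of 0.39 ± 0.11 (adjusted p = 0.0364). The Cyp2a3 call was lost in 5 of 42 fits that each left out 1 array (each of the 3 arrays of 60/35/5 and arrays 2 and 3 of 65/34/1). The control curve brought Cyp4b1 to 0.43 and turned Cyp2a3 to -0.028, with neither called. Of the other lung-enriched members, Cyp1a1, Cyp1b1 and Cyp2s1 were not called between these mixtures.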

How the data were processed

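Expression was measured on 42 arrays. The authors normalized them with RMA, per the labels and the submitters' processing notes, and deposited log2 values per probe set; its version was not given in the sources used here. This normalization equalises array distributions, which can scale unlike tissues unevenly. All 31042 probe sets other than 57 controls entered 1 limma fit (limma 3.58.1, R 4.3.3; 28 residual and 4.56 prior degrees of freedom) with a mean per group and Benjamini-Hochberg adjustment. Pure tissues were called at adjusted p under 0.05 and 2-fold; departures from linear mixing at 1.5-fold, with delta-method errors; mixtures alone, by regression on linear values with a variance trend, and the pair of mixtures without a fold limit. Each gene was represented by its probe set with the highest mean. Gene names are those of the platform annotation, and 7 P450 probe sets with several symbols were left out of the family. Named were the 15 liver genes with the largest difference from the next tissue, all brain and lung genes, members called in a pair, the 5 largest departures each way and up to 8 partners; further members were named by role. Members, lists and tests were chosen with earlier results of these data known. Scripts were tested on simulated data. Promoter identities came from Biopython 1.88 alignments; figures used matplotlib 3.10.9 under Python 3.11.15.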

Additional observations from a re-analysis of the deposited data

How the results depend on the processing

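Counts of P450 probe sets are given here. The 13 below linear mixing became 22 with median centring, 3 with the curve through the hybridisation controls, 21 with the 5th percentile subtracted, 2 with mixing on the log2 scale and 2 at a 2-fold limit. The 4 above it became 24 with mixing on the log2 scale and 2 at a 2-fold limit. The 2 called between 60/35/5 and 65/34/1 became 0 with the control curve and 1 with a variance trend. The 3 enriched in brain became 1 when dim probe sets were dropped (those under 5.73 in every group, which left 46 of 66) and 1 at a 4-fold limit, the 5 enriched in lung became 2 at a 4-fold limit, and the 24 called between brain and lung became 14 at that limit. On the log2 scale of mixing 6 departures turned positive: Cyp2t1 0.12, Cyp2a3 0.24, Cyp2b3 1.23, Cyp2j3 0.16, Cyp39a1 0.18 and Cyp2j4 0.17. With the control curve the Cyp2a3 difference between 60/35/5 and 65/34/1 was -0.028. The cause was not tested, apart from limits that are stricter by construction. Leaving out each array in turn gave 1 to 3 probe sets for that pair, the arrays being those named with the result. It gave 4 to 4 above and 12 to 14 below linear mixing, 45 to 47 for liver against brain, 41 to 42 for liver against lung and 23 to 25 for brain against lung. It gave 35 to 36, 2 to 3 and 5 to 5 enriched in liver, brain and lung, and 55 to 59, 55 to 62 and 43 to 46 called from mixtures alone in the same order of pairs. For single genes, 456 of 509 values under 11 other settings kept their direction and side of the threshold, 46 lost the call and 7 turned. Of 2436 values without 1 array, 2405 kept both and 31 lost the call. Some settings brought in further members: Cyp4f5 in lung (1.01 to 1.73, log2, in 3 settings), Cyp4a8 and Cyp2a2 in liver and Cyp4f17 in lung. No paired analysis was possible because the labels give no replicate numbers. With 3 arrays per group of 1 animal, the number of arrays limits the precision.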

Other observations

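The 7 P450 probe sets that match several genes were left out of the family because their signal cannot be assigned to a gene. The probe set of Cyp2b2 and Cyp2b1, the forms induced by phenobarbital in liver, read 12.03, 12.11 and 12.05 in lung, 7.96, 8.16 and 8.13 in liver and 3.78, 3.44 and 3.50 in brain. Lung was 15.8-fold above liver (limma adjusted p = 2.67e-34), and the arrays of the 3 tissues did not overlap. The probe sets of Cyp2a2 with Cyp2a1, Cyp2d5 with Cyp2d1 and Cyp4a3 with Cyp4a2 were enriched in liver, with liver means of 11.68, 11.30 and 11.31 and next-tissue differences of 145-fold, 109-fold and 242-fold. Of the 3 Cyp11b probe sets, that of Cyp11b1 and Cyp11b2 was enriched in brain, at 4.92, 4.87 and 4.99 in brain, 3.22, 3.48 and 3.66 in liver and 3.07, 3.09 and 3.01 in lung. That of Cyp11b1, Cyp11b3 and Cyp11b2 read 4.67 in liver, 4.64 in brain and 3.55 in lung, and that of Cyp11b1 and Cyp11b3 4.02, 3.48 and 3.38.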
